A study of Mus musculus with 8 samples.

Results

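Collagen chain genes were described across 8 arrays of mouse embryonic fibroblasts (MEFs). They were chosen by name, as every gene whose symbol is Col, a number, the letter a and a number and which had a probe set assigned to that gene alone on the Affymetrix Mouse Genome 430 2.0 array. The rule found 42 genes with 82 probe sets, of 18193 genes and 45101 probe sets on the array. By the structure their chains build, 11 are fibrillar, 9 form networks and 22 belong to other classes. All cells had been immortalized with large T antigen and grown in high-glucose medium at 21% oxygen. There were 4 genotypes with 2 arrays each: wild type, cells null for FIH, cells null for VHL, and VHL/FIH null cells, called double null here. The null MEFs came from infecting floxed lines, named FIHdf, VHLdf and VHLdf/FIHdf in the design, with an adenovirus carrying Cre recombinase, which excises the floxed allele. Each null group thus came from its own parental line, and genotype and parental line cannot be told apart, and whether the wild type cells had met the virus is not given in the sources used here. The samples are labelled biological replicates without a statement that they came from separate embryos or cultures, and the p-values therefore cover the spread between such samples only, which may be technical.

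Collagen chains wind in threes into a triple helix. Fibrillar collagens, above all types I, III and V, pack into the cable-like fibrils of connective tissue, type IV collagens mesh into basement membranes, types VIII and X form hexagonal sheets, and type VI collagen forms beaded microfibrils around cells. Fibroblasts are the main makers of interstitial collagen, while types II and X are hallmarks of cartilage. Before they can fold, the chains are hydroxylated on proline and lysine by oxygen-dependent enzymes of the endoplasmic reticulum, several of which are encoded by targets of the hypoxia-inducible factors (HIF). VHL recognises hydroxylated HIF alpha chains and brings them to a ubiquitin ligase for destruction, and FIH, the product of Hif1an, hydroxylates an asparagine of the same chains and so lowers their transcriptional activity.

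The values are MAS5 signals, a linear fluorescence intensity per probe set, already scaled by the authors so that every array had the same trimmed mean of 2500.01. A gene was tested when 2 or more arrays gave its probe set a signal over 291.3, the median over the whole table, and 25 of the 42 collagen chain genes were, of 11561 genes over the whole array. The 17 left out were Col4a3, Col4a4, Col6a4, Col6a5, Col9a2, Col9a3, Col11a2, Col13a1, Col14a1, Col15a1, Col17a1, Col19a1, Col20a1, Col23a1, Col24a1, Col25a1 and Col26a1, with signals from 5 to 338, and 14 of them were above the cutoff on no array. Differences are between group means of log2(signal + 16), which understates changes of low signals, and adjusted p-values are from limma with Benjamini-Hochberg adjustment over those 11561 genes at a threshold of 0.05. Where a group's mean lay below 291.3, a fold is given as "at least", the other group's mean signal divided by 291.3. Signals of different probe sets are not compared with each other. Across the 11561 tested genes on the log2 scale, arrays of one group correlated with r from 0.989 to 0.990 and arrays of different groups with r from 0.942 to 0.976. Vhl was lower in VHL null (-2.15) and double null cells (-1.74), and Hif1an fell by 0.75 in FIH null, by 1.15 in double null and by 0.49 in VHL null cells, where it was not targeted. Whether the probes of either gene lie in the excised part is not given in the sources used here. Fibroblast markers were present in part, with Vim, Fn1, S100a4, Twist1, Prrx1, Pdgfrb and Postn above the cutoff on all 8 arrays, whereas Fap and Lum were below it on all 8. Pdgfra was above it on 6 arrays, Dcn on 4 and Thy1 on 3. The 12 fibroblast markers summed to between 245636 and 263639 in wild type, 283873 and 302989.5 in FIH null, 247123 and 257274 in VHL null, and 261309 and 295347 in double null arrays, sums carried mostly by Vim, Fn1 and S100a4. Of the 10 tested, 2 rose and 1 fell in FIH null, 1 rose and 3 fell in VHL null, and 2 rose and 4 fell in double null cells. Shares of all genes higher and lower were, in the same order, 1.96% and 4.59%, 15.5% and 28.4%, and 17.8% and 23.6%. In double null cells Pdgfra was at least 3.47-fold and Dcn at least 2.09-fold lower and Postn also fell (-1.20). Prrx1 averaged 16520 on the wild type and 22731 on the double null arrays. On FIH null arrays Postn averaged 12490, against 4884 in wild type, and Dcn averaged 113, against 610.

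Against wild type, 9 of the 25 tested collagen chain genes changed in FIH null cells, 5 higher and 4 lower, where 6.56% of all tested genes changed, 1.96% higher and 4.59% lower. The 9 became 5, with 1 or 2 higher, without wild type replicate 1, wild type replicate 2, FIH null replicate 1 or FIH null replicate 2, and 4, with 1 higher, without a variance trend. In VHL null cells 12 changed, 3 higher and 9 lower, beside 43.8% of all genes, 15.5% higher and 28.4% lower. In double null cells 16 changed, 7 higher and 9 lower, beside 41.4% of all genes, 17.8% higher and 23.6% lower. The share of VHL null calls among the collagen chain genes, 48%, was thus near that of the array, while the shares in FIH null, 36%, and double null cells, 64%, were above theirs. These 3 comparisons share the wild type arrays. Their median log2 differences over the collagen chain genes were -0.08, -0.22 and -0.20, against -0.00, -0.10 and -0.05 over all genes, and the median sizes without sign were 0.36, 0.32 and 0.73, against 0.12, 0.27 and 0.25. By size, 2, 6 and 7 of the calls were at least 2-fold, beside 1.83%, 5.42% and 6.96% of all genes. Among the 19 collagen chain genes above the cutoff on all 8 arrays, 8, 9 and 14 changed. The share among all genes that meet this stricter condition was not computed, so these counts cannot be set against the shares above. Spiked hybridization controls read higher than in wild type, by 0.26 on FIH null arrays, 0.38 on VHL null arrays and 0.52 on double null arrays, and scaling to them lowers every gene by those amounts. The split of higher and lower calls then became 1 and 12 in FIH null, 1 and 17 in VHL null, and 5 and 19 in double null cells, where 5105, 8388 and 9137 of all 11561 genes were called, so the changes below are relative to the array's mean level.

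**Figure D1:**
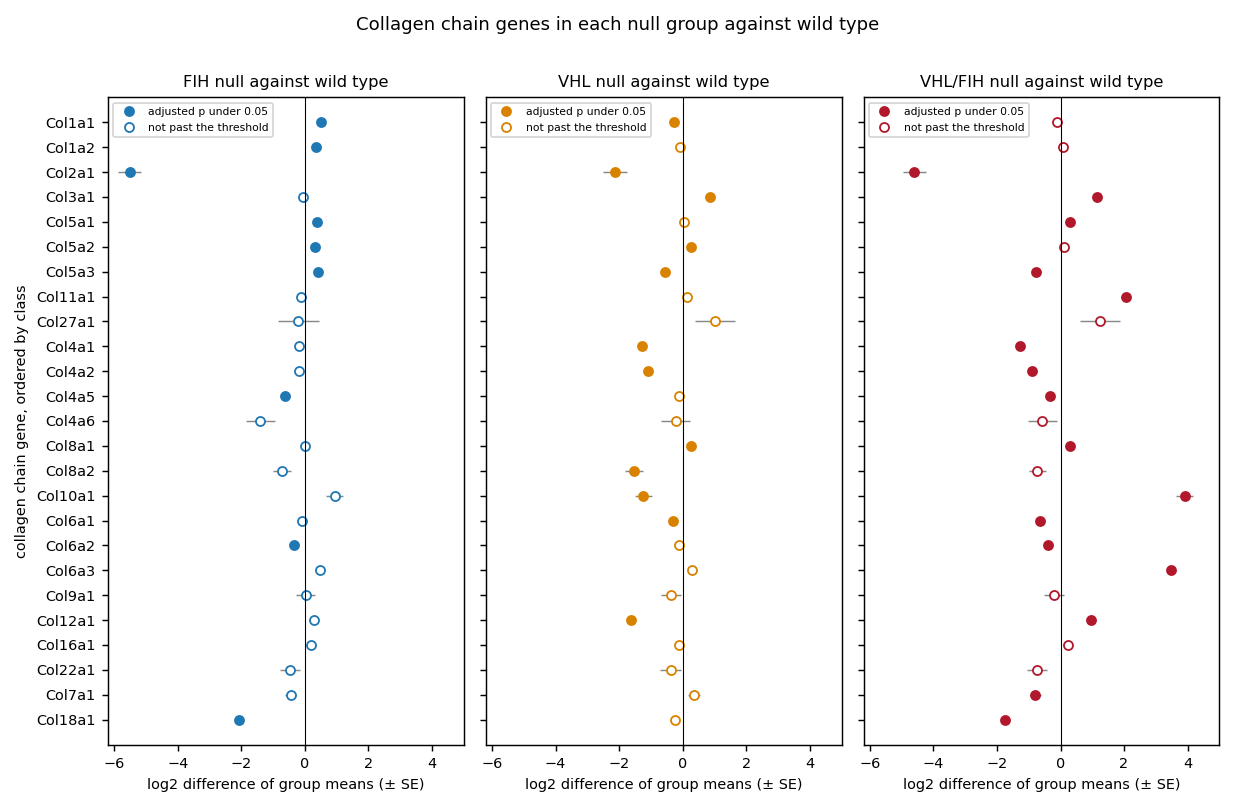
Log2 difference from wild type (horizontal axis, ± SE) of the 25 tested collagen chain genes in FIH null, VHL null and double null cells, ordered by class from fibrillar at the top, with filled points past the adjusted p threshold of 0.05. Col2a1 lies far to the left in FIH null and double null cells, and Col10a1 and Col6a3 lie far to the right in double null cells at 3.91 (from a wild type level below the cutoff) and 3.48; scaling to hybridization controls turns Col8a1 in the last 2 panels, Col5a2 in VHL null and Col5a1 in double null cells.

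In double null cells 3 genes of 3 classes, Col10a1, Col6a3 and Col11a1, had the largest rises against wild type among the 25 tested. Col6a3 encodes the largest chain of beaded type VI collagen, Col10a1 the single chain of type X collagen, the sheet-forming collagen of hypertrophic cartilage, and Col11a1 a chain of the minor fibrillar collagen XI that controls fibril width. The RefSeq sequence just upstream of each gene (build GRCm38.p6, strand of the gene, 5′ to 3′, bases outside the gene's annotated span only) is shown for these 3 genes for that reason, and capitals mark the letters TATAAA where present. The stretches are chr10:34389731-34389980 on the plus strand for Col10a1, chr1:90844002-90844221 on the minus strand for Col6a3 and chr3:114030290-114030478 on the plus strand for Col11a1.
Col10a1: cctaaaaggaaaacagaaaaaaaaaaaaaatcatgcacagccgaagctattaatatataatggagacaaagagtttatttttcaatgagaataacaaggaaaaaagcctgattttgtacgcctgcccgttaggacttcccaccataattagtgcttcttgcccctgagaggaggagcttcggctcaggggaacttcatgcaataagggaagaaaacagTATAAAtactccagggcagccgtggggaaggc
Col6a3: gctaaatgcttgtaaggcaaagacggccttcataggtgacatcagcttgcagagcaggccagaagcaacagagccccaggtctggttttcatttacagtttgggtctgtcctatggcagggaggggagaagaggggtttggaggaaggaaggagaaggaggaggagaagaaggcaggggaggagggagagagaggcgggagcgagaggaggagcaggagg
Col11a1: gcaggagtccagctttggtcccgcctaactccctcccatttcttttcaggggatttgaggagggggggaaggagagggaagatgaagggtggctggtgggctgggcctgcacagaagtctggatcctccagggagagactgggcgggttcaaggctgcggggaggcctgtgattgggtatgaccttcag
Only the Col10a1 stretch holds TATAAA, on the gene's strand and starting 32 bases before the transcript start. Neither ACGTG nor GCGTG, the 2 forms of the core of the HIF binding motif searched here, was found on either strand in the 250 bases before any of the 3 starts, which says only that these letters are not in these windows.

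Col6a3 signals were 389.6 and 412 in wild type, 587 and 544 in FIH null, 524 and 470.3 in VHL null, and 4729 and 4558 in double null cells. Both double null arrays stood far above the other 6, which lay between 389.6 and 587. The rise against wild type was 3.48 (SE 0.149, adjusted p = 2.18e-08), an 11.2-fold difference, and the differences in FIH null (0.48, adjusted p = 0.0858) and VHL null cells (0.30, adjusted p = 0.125) did not pass. Col10a1 read 256 and 283 in wild type, 532 and 525 in FIH null, 144 and 75.3 in VHL null, and 4354 and 4187 in double null cells. Here too both double null arrays were far above the rest, wild type and VHL null arrays were all below the cutoff, and both FIH null arrays were above it. Col10a1 was at least 14.7-fold higher in double null than in wild type cells (adjusted p = 7.08e-07) and 7.88-fold higher than in FIH null cells (adjusted p = 5.35e-06). Col11a1 signals were 582 and 653 in wild type, 589 and 547 in FIH null, 676 and 670.0 in VHL null, and 2502 and 2696 in double null cells. The other 6 arrays lay between 546.5 and 676, where wild type and FIH null overlapped, and double null lay above all of them, 4.13-fold higher than wild type (log2 difference 2.05, adjusted p = 1.27e-06). A second Col11a1 probe set gave 3.03 for the same difference.

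Of markers of other mesenchymal cells, 1 of 2 tested for adipocytes and 1 of 3 for skeletal muscle rose in double null cells, and of 5 for smooth muscle 1 rose and 1 fell, beside 17.8% of all genes higher and 23.6% lower. Of 6 adipocyte markers, 5 had a probe set and 2 were tested, and their summed signal was 1793 to 1928 in wild type, 1397 to 1414 in FIH null, 1661 to 1928 in VHL null and 3079.7 to 3343 in double null arrays, with Fabp4 2.33 above wild type on the log2 scale (adjusted p = 2.5e-05) and 3 of the 5 below the cutoff on all 8 arrays. The 6 skeletal muscle markers summed to between 1103 and 1191 in wild type, 962 and 1209 in FIH null, 1411 and 1578 in VHL null, and 2199.8 and 2213.5 in double null arrays, with Acta1 higher (1.78, adjusted p = 0.0001) and 3 of the 6 below the cutoff on all 8. The 6 smooth muscle markers summed to between 69599 and 73308 in wild type, 57374 and 60425 in FIH null, 55573 and 56939 in VHL null, and 74786 and 83098 in double null arrays, with Cnn1 higher (1.44, adjusted p = 7.45e-07). Actg2 was the smooth muscle marker that fell, averaging 1910.6 on the wild type and 441.7 on the double null arrays. Pparg for adipocytes and Pax7 and Ckm for skeletal muscle were tested and did not pass in double null cells. The part of these markers in the rises of Col6a3, Col10a1 and Col11a1 was not tested, and in these bulk samples fewer cells of a type and less RNA per cell cannot be told apart.

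The interaction asks whether the effect of FIH loss differs between cells with and without VHL, as the log2 difference of double null from VHL null minus that of FIH null from wild type. It passed for all 3 (largest adjusted p = 7.07e-05), at 2.70 for Col6a3 and 2.04 for Col11a1. The fitted 4.22 for Col10a1 takes in the wild type and VHL null groups, both below the cutoff, and is no measure of size. Of the 25 genes 11 had an interaction, 8 above and 3 below 0, where 21.9% of all genes had one, 13.4% above and 8.47% below 0. At least 2-fold were 6 of the 11, beside 5.5% of all genes. Col12a1, a fibril-associated collagen with interrupted helices (FACIT) that bridges fibrils, had one as well. Its signals were 2900.1 and 2821 in wild type, 3669 and 3371 in FIH null, 942 and 870.3 in VHL null, and 6215 and 5101 in double null cells. VHL null arrays were the lowest and double null arrays the highest, with no overlap between any pair of groups: Col12a1 was 3.12-fold lower in VHL null cells (-1.64, adjusted p = 9.13e-07) and 1.96-fold higher in double null cells (0.97, adjusted p = 3.15e-05), with an interaction of 2.32 (adjusted p = 2.33e-06). A second probe set gave -0.91 and 0.80.

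**Figure D2:**
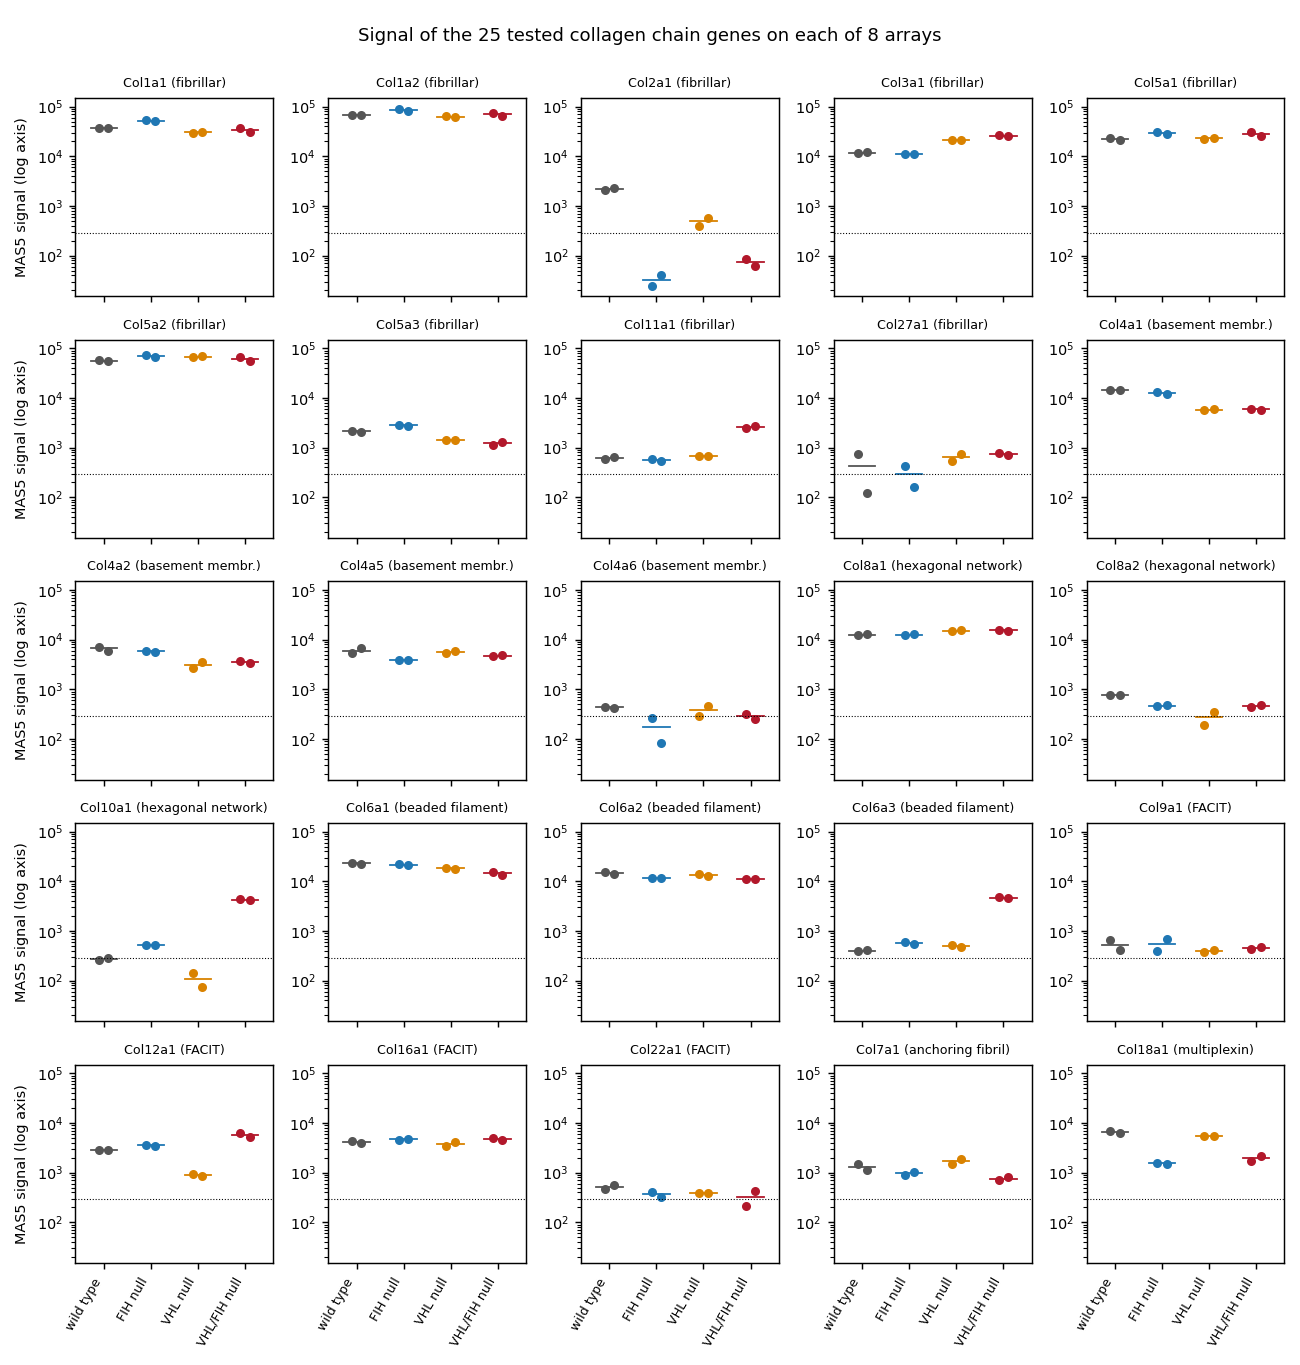
MAS5 signal (log axis) of each tested collagen chain gene on each array, by group; points are the 2 arrays, bars their mean, and the dotted line is the cutoff of 291.3. Col6a3, Col10a1 and Col11a1 are high on both double null arrays alone, and Col2a1 is below the cutoff in FIH null and double null cells.

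Of 9 tested fibrillar genes, 5 rose and 1 fell in FIH null cells, 2 rose and 3 fell in VHL null cells, and 3 rose and 2 fell in double null cells. In the same order, the shares of all genes higher and lower were 1.96% and 4.59%, 15.5% and 28.4%, and 17.8% and 23.6%. Col1a1 and Col1a2 encode the chains of type I collagen, the bulk of fibroblast matrix. Col1a1 read 36996 and 37115 in wild type, 53718 and 51073 in FIH null, 30167 and 30559 in VHL null, and 37279.7 and 31069 in double null cells, so both FIH null arrays were above all others. It rose by 0.50 in FIH null cells (adjusted p = 0.00236) and fell in VHL null cells (log2 difference -0.29, adjusted p = 0.0105), and in double null cells the difference of -0.12 did not pass. For Col1a2 the signals were 67845 and 66941 in wild type, 89931 and 83053 in FIH null, 64520.3 and 62101 in VHL null, and 75608 and 65803 in double null cells. FIH null arrays were again the highest, and the rise was 0.36 (adjusted p = 0.0116), while the VHL null (-0.09) and double null (0.07) differences did not pass. Other Col1a2 probe sets gave -0.48 and -0.54 in VHL null and -0.17 and -0.33 in double null cells, so these 2 results depend on the probe set.

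Type V collagen nucleates and thins type I fibrils. Its genes Col5a1, Col5a2 and Col5a3 all rose in FIH null cells, by 0.37, 0.31 and 0.41. The Col5a1 signals were 23754 and 21639 in wild type, 30314 and 28339.5 in FIH null, 22823 and 23481 in VHL null, and 30573 and 25364 in double null cells, with both FIH null arrays above wild type and VHL null and within the range of double null. Col5a2 read 57491 and 55139.9 in wild type, 72336 and 67425 in FIH null, 66122 and 70222 in VHL null, and 65558 and 55305 in double null cells, so that both wild type arrays were below the 4 single null arrays, and the 2 double null arrays lay from near the wild type level up to just below the VHL null level. Signals of Col5a3 were 2174 and 2051 in wild type, 2859.7 and 2759.8 in FIH null, 1429 and 1409 in VHL null, and 1150.2 and 1324 in double null cells: the order FIH null, wild type, VHL null, double null held with no overlap between the groups. Col5a3 fell in VHL null (-0.57, adjusted p = 0.00142) and in double null cells (-0.77, adjusted p = 0.000182), and the interaction was -0.61 (adjusted p = 0.0146). For Col5a2 the rise in VHL null cells was 0.28 (adjusted p = 0.0151) and the interaction -0.49 (adjusted p = 0.00959), and Col5a1 rose by 0.30 in double null cells (adjusted p = 0.0153).

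The rises of type I and V genes in FIH null cells were small. The Col1a2 call was lost when wild type replicate 1 was left out (adjusted p = 0.0703), as it was without wild type replicate 2 (0.085) or FIH null replicate 1 (0.132). The Col5a1 call was lost without wild type replicate 2 (0.167), FIH null replicate 1 (0.181) or FIH null replicate 2 (0.0707), and those of Col5a2 (adjusted p between 0.0665 and 0.262) and Col5a3 (between 0.0639 and 0.2445) without any one of the wild type, FIH null or VHL null arrays. Col1a1 no longer passed when its probe sets were averaged (adjusted p = 0.0908) or the variance trend was dropped (0.0534). In VHL null cells the Col1a1 fall became -0.15 when its probe sets were averaged (adjusted p = 0.252), its second probe set giving -0.01. The call was also lost without wild type replicate 1 (-0.29, adjusted p = 0.0501) or VHL null replicate 1 (-0.28, adjusted p = 0.0622), at nearly the same size. The Col5a2 rise in VHL null cells ended without wild type replicate 2 (0.0892) or VHL null replicate 2 (0.109) and became -0.10 under scaling to the hybridization controls. The Col5a1 rise in double null cells ended without wild type replicate 2 (0.114) or double null replicate 1 (0.107) and turned to -0.23 with that scaling and to -0.018 when its probe sets were averaged. The Col5a3 interaction ended without wild type replicate 2 (0.0521) or FIH null replicate 1 (0.0617).

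Col3a1, the chain of type III collagen, which mixes with type I in extensible tissue, behaved otherwise. Its signals were 11476 and 12006 in wild type, 11343 and 11252 in FIH null, 21599.9 and 20924 in VHL null, and 26341 and 25792 in double null cells. Wild type and FIH null arrays lay together near the bottom and the 4 arrays without VHL were all higher. Col3a1 rose 1.81-fold in VHL null cells (0.86, adjusted p = 8.11e-07) and 2.22-fold in double null cells (1.15, adjusted p = 4.39e-08). The FIH null difference was -0.06 (adjusted p = 0.61). The interaction was 0.35 (adjusted p = 0.00811) and ended with each array centred on its median (0.0632).

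Col2a1, the chain of cartilage type II collagen, read 2049.5 and 2273 in wild type, 24.1 and 40.2 in FIH null, 402 and 572 in VHL null, and 86.5 and 62.5 in double null cells. Wild type was highest, VHL null cells lay between, and all 4 arrays without FIH were below the cutoff. It was at least 7.42-fold lower in FIH null than in wild type cells (adjusted p = 4.75e-06), at least 7.42-fold lower in double null cells (adjusted p = 3.2e-06) and 4.39-fold lower in VHL null cells (adjusted p = 0.000914). Its interaction of 3.05 (adjusted p = 0.00211) compares groups below the cutoff and is no measure of size. Beside Col2a1, the 14 listed cartilage markers summed to between 3384 and 3819 in wild type, 2693 and 2988 in FIH null, 4944 and 5505 in VHL null, and 2355 and 2626 in double null arrays. Of these markers, Sox9 alone was above the cutoff on all 8 arrays and 6 were below it on all 8, among them Matn1, Hapln1 and Cnmd. Acan, the main cartilage proteoglycan, averaged 550.3 on the wild type, 219 on the FIH null, 1728 on the VHL null and 299 on the double null arrays, lower than wild type in FIH null (adjusted p = 0.02) and double null cells (-0.90, adjusted p = 0.0229) and higher in VHL null cells (1.62, adjusted p = 0.000835). Sox9, a regulator of cartilage genes, rose in VHL null (0.82, adjusted p = 0.00189) and fell in double null cells (-0.52, adjusted p = 0.0233), with an interaction of -1.31 (adjusted p = 0.00216), and Matn3, a matrilin, fell in VHL null cells by at least 1.62-fold (adjusted p = 0.00917). In all, of 4 tested cartilage markers 0 rose and 1 fell in FIH null, 2 rose and 1 fell in VHL null, and 0 rose and 2 fell in double null cells. Beside them stand 1.96% and 4.59%, 15.5% and 28.4%, and 17.8% and 23.6% of all genes higher and lower. The part of the cartilage markers in the Col2a1 and Col10a1 results was not tested. Of the 5 bone markers with a probe set, Ibsp and Dmp1 were below the cutoff on all 8 arrays and none was above it on all 8, and they summed to between 635.3 and 1004 over all arrays. Of the remaining fibrillar genes, Col27a1 read between 121 and 781, its 2 wild type arrays differed by 740.5 against 121, and it passed in none of the 6 comparisons.

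Of 7 tested network-forming genes, 1 fell in FIH null cells, 1 rose and 4 fell in VHL null cells, and 2 rose and 3 fell in double null cells. Over all genes, again in this order, 1.96% and 4.59%, 15.5% and 28.4%, and 17.8% and 23.6% were higher and lower. Col4a1 and Col4a2 encode the chains of the ubiquitous type IV heterotrimer and lie head to head on chromosome 8 (chr8:11198423-11312889 and chr8:11312805-11449287, GRCm38.p6), with annotated spans that overlap at their starts. Col4a1 signals were 14158 and 14478 in wild type, 13211 and 11895 in FIH null, 5627 and 6055 in VHL null, and 6063 and 5659 in double null cells, and those of Col4a2 were 7234 and 6027 in wild type, 5994 and 5661 in FIH null, 2746 and 3479 in VHL null, and 3698 and 3441 in double null cells. For both genes the 4 arrays without VHL were below all 4 arrays with it. Col4a1 was 2.45-fold lower in VHL null cells (-1.29, adjusted p = 2.58e-07) and 2.44-fold lower in double null cells (-1.29, adjusted p = 1.44e-07). Col4a2 was 2.13-fold (-1.09) and 1.85-fold lower (-0.89; larger adjusted p = 0.000123). Neither passed in FIH null cells (-0.19 and -0.18), in double null against VHL null cells (0.00, SE 0.0716, and 0.21, SE 0.116) or for the interaction (0.20 and 0.39).

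Col4a5, a chain of the network of kidney and skin basement membranes, read 5429.7 and 6638 in wild type, 3841 and 3978 in FIH null, 5361 and 5835 in VHL null, and 4758 and 4803 in double null cells. FIH null arrays were the lowest of the 8, with a log2 difference of -0.62 from wild type (adjusted p = 0.00216), beside -0.10 in VHL null (not passed) and -0.33 in double null cells (adjusted p = 0.0152). The double null call was lost without wild type replicate 2 (adjusted p = 0.148) or double null replicate 1 (0.0533). Its neighbour on chromosome X, Col4a6, 1274 bases away, read between 83.5 and 456, was below the cutoff on some arrays and passed in no comparison. Col4a3 and Col4a4, the head-to-head pair on chromosome 1, were not tested.

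Col8a1 and Col8a2 encode the chains of type VIII collagen, made by vascular and corneal cells. Col8a1 read between 12188 and 12864 on the 4 arrays with VHL and between 14968 and 15756 on the 4 without, a rise of 0.27 in VHL null (adjusted p = 0.00317) and 0.30 in double null cells (adjusted p = 0.00149) that became -0.11 and -0.22 under scaling to the hybridization controls. Col8a2 signals were 781 and 777 in wild type, 459 and 471 in FIH null, 191 and 349.6 in VHL null, and 447 and 482 in double null cells. Wild type was highest and VHL null lowest, with 1 of its 2 arrays above the cutoff, and Col8a2 was at least 2.68-fold lower there (adjusted p = 0.00114), while FIH null (-0.72) and double null differences (-0.73, adjusted p = 0.0547) did not pass. Its interaction of 1.53 (adjusted p = 0.0172) was lost when wild type replicate 1 (0.0552), wild type replicate 2 (0.0514) or FIH null replicate 1 (0.0516) was left out. Col10a1 also passed as lower in VHL null than in wild type cells (-1.24, adjusted p = 0.00303), but both groups were below the cutoff, and the call was lost in a fit of only those 2 groups (adjusted p = 0.0664).

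Of 9 tested genes of other classes, 2 fell in FIH null cells, 2 fell in VHL null cells, and 2 rose and 4 fell in double null cells. Higher and lower shares of all genes were 1.96% and 4.59%, 15.5% and 28.4%, and 17.8% and 23.6% in these comparisons. Col18a1 encodes a basement membrane collagen and proteoglycan core whose carboxyl end is the source of endostatin, an inhibitor of vessel growth. Its signals were 6764 and 6343 in wild type, 1582 and 1489 in FIH null, 5416 and 5542 in VHL null, and 1732 and 2175 in double null cells. All 4 arrays without FIH were below all 4 with it, and the fall was 4.23-fold in FIH null (-2.08, adjusted p = 4.58e-07) and 3.36-fold in double null cells (-1.75, adjusted p = 2.95e-07). The VHL null difference was -0.26 (adjusted p = 0.0682). A second probe set gave -1.90 and -1.70 for the falls. The fall after FIH loss was smaller without VHL, with an interaction of 0.59 (adjusted p = 0.0155) that ended without wild type replicate 1 (0.0617), FIH null replicate 2 (0.0553) or VHL null replicate 1 (0.0576).

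Col6a1 and Col6a2, the short chains that join Col6a3 in type VI collagen and lie 85161 bases apart on chromosome 10, did not follow the long chain. Col6a1 read 23714 and 22187 in wild type, 21824 and 21504 in FIH null, 18787 and 18007 in VHL null, and 15567 and 13700.4 in double null cells, and Col6a2 read 15099.6 and 14023 in wild type, 11413 and 11472 in FIH null, 13956 and 12894 in VHL null, and 11151 and 10894 in double null cells. Where Col6a3 was 11.2-fold higher in double null cells, Col6a1 was 1.57-fold lower (-0.65, adjusted p = 2.47e-05) and Col6a2 1.32-fold lower (-0.40, adjusted p = 0.000427). Col6a1 also fell in VHL null cells (-0.32, adjusted p = 0.00332) and Col6a2 in FIH null cells (-0.35, adjusted p = 0.00708). The Col6a2 call in FIH null cells ended without wild type replicate 1 (0.0707), FIH null replicate 1 (0.0635) or FIH null replicate 2 (0.0549). Col6a4 and Col6a5, genes of alternative long chains, were not tested.

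Col7a1, the anchoring fibril collagen that ties epidermis to dermis, read 1511 and 1143 in wild type, 880.0 and 1052 in FIH null, 1521 and 1865 in VHL null, and 701 and 806 in double null cells. Double null arrays were below all others, with log2 differences of -0.79 against wild type (adjusted p = 0.00379) and of -1.15 against VHL null cells (adjusted p = 0.000443). Of the FACIT genes beside Col12a1, 1 passed in 1 comparison. Col16a1 read between 3476 and 5042 and passed only in double null against VHL null cells (0.34, adjusted p = 0.0164), a call that ended without VHL null replicate 1 (0.147) or double null replicate 1 (0.1002). Col9a1 (381 to 698) and Col22a1 (217 to 563) passed in no comparison.

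Adding FIH loss to VHL loss moved 13 of the 25 genes, 8 higher and 5 lower, beside 37.7% of all genes, 22.3% higher and 15.4% lower, in that comparison of double null with VHL null cells. At least 2-fold were 7 of the 13, beside 5.99% of all genes. It shares no array with FIH null against wild type, though both draw on one estimate of each gene's spread. Of the 9 genes called after FIH loss in cells with VHL and the 13 called in cells without it, 4 were in both lists, 44.4% of the first and 30.8% of the second, and all 4 kept their direction: Col2a1, Col18a1 and Col6a2 were lower and Col5a1 higher. The overlap over all genes was not computed, so these counts show nothing particular to collagen chain genes. The log2 differences with and without VHL were -2.08 and -1.49 for Col18a1 and -0.35 and -0.28 for Col6a2, while those of Col2a1 reach below the cutoff in the cells without FIH and are bounds of at least 7.42-fold and at least 1.67-fold. Col6a3, Col12a1 and Col11a1 passed after FIH loss in the cells without VHL and not in those with it, with differences of 3.18, 2.62 and 1.92 without VHL and of 0.48, 0.30 and -0.12 with it. Col10a1 was at least 14.7-fold higher after FIH loss without VHL, and with VHL at least 1.81-fold higher, which did not pass (adjusted p = 0.0613). The interaction passed for each of these 4 genes. The Col5a1 call in double null against VHL null cells ended without VHL null replicate 1 (0.134), VHL null replicate 2 (0.0832) or double null replicate 1 (0.195).

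**Figure D3:**
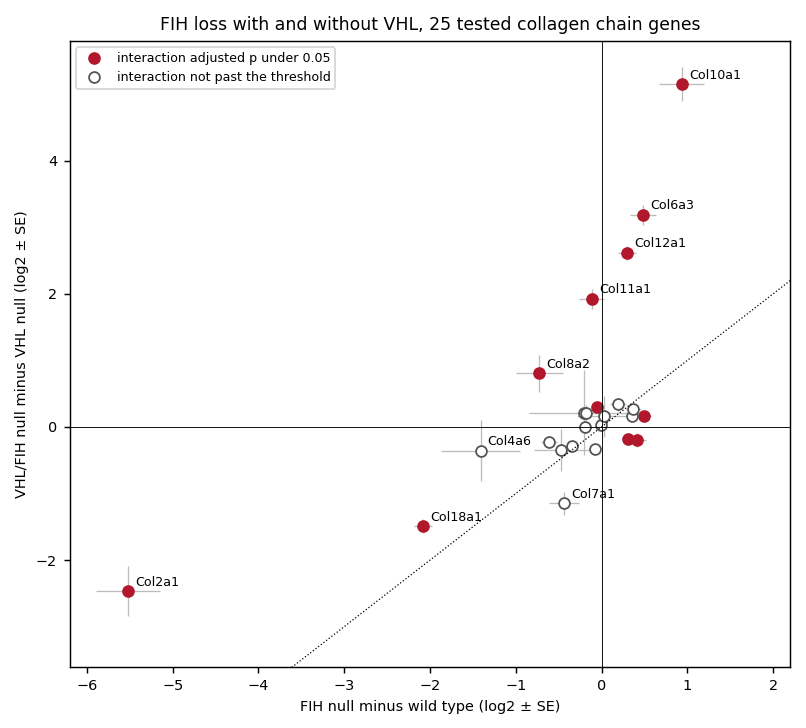
Effect of FIH loss in cells with VHL (horizontal axis, FIH null minus wild type) against its effect in cells without VHL (vertical axis, double null minus VHL null), log2 ± SE, for the 25 tested collagen chain genes; red points have an interaction past the adjusted p threshold of 0.05 and the dotted line marks equal effects. Col10a1, Col6a3, Col12a1 and Col11a1 stand above the line, at 0.93, 0.48, 0.30 and -0.12 on the horizontal axis, where no point of the 4 passed, and Col2a1 and Col18a1 are negative on both axes.

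Adding VHL loss to FIH loss, double null against FIH null cells, moved 15 genes, 8 higher and 7 lower, beside 45.6% of all genes, 20.6% higher and 25% lower. At least 2-fold were 6 of the 15, beside 7.79% of all genes. Of the 12 genes called after VHL loss in cells with FIH and these 15, which again share no array, 10 were in both lists, 83.3% and 66.7%. Here too the overlap and shared direction over all genes were not computed, so the counts show nothing particular to collagen chain genes. Direction was the same for 7 of the 10: Col3a1 and Col8a1 rose, the latter not under scaling to the hybridization controls, and Col1a1, Col4a1, Col4a2, Col5a3 and Col6a1 fell in both. The other Col1a1 probe set gave -0.01 after VHL loss with FIH and 0.36 without it. In Col4a1 the 2 falls were -1.29 and -1.10, and in Col3a1 the 2 rises were 0.86 and 1.21. The direction was opposite for Col12a1 (-1.64 and 0.68) and Col5a2 (0.28 and -0.21), which both had an interaction. Col10a1 also had opposite signs, but its VHL null and wild type means were both below the cutoff and give no direction. Under scaling to the hybridization controls the Col5a2 difference in VHL null cells became -0.10, so its 2 directions were then the same. The Col5a2 call in double null against FIH null cells (adjusted p = 0.0446) ended without any array but double null replicate 1 (adjusted p from 0.0607 to 0.303). With scaling to hybridization controls the split was 4 higher and 8 lower against VHL null cells, 5 and 11 against FIH null cells, and 11 and 2 for the interaction, and centring each array on its median made the last 7 and 6.

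Of the neighbouring pairs, both Col4a1 and Col4a2 fell with VHL loss, whether FIH was present or not, and both Col6a1 and Col6a2 fell in double null cells, against wild type as against VHL null cells (-0.33 and -0.28). Col4a5 fell in FIH null cells, where Col4a6 was at least 1.48-fold lower but did not pass (adjusted p = 0.1). For Col3a1 and Col5a2, 24624 bases apart on chromosome 1, the double null differences were 1.15, which passed, and 0.10, which did not. No difference between neighbours was tested. Over the 33 of 42 genes with a RefSeq promoter window, 10 held ACGTG or GCGTG on either strand in the 250 bases before a start, beside 38.6% of all 32851 windows. They were Col1a2, Col4a1, Col4a2, Col4a4, Col5a1, Col5a3, Col6a2, Col11a2, Col13a1 and Col16a1. Both motifs were in 1 of these genes, and a palindromic CACGTG counts on both strands. TATAAA on either strand was in 5 of the 33, beside 12.4% of all windows.

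Several collagen chain genes have more than 1 tested probe set, and these did not always move together. All probe sets of a called gene had the same sign for 7 of 7 such genes in FIH null cells, 6 of 6 in VHL null cells and 8 of 9 in double null cells. The exception was Col5a1, at 0.30 by the probe set used and at -0.18 and -0.17 by the others in double null cells. Col1a1 gave -0.62 by the probe set used and 0.36 by the other between double null and FIH null cells, and -0.33 and 0.36 for the interaction. In Col4a5 the probe sets gave 0.29 and -0.29 for the same comparison. For these 3 genes the direction in those comparisons depends on the probe set, whereas Col3a1, Col4a1, Col11a1, Col12a1 and Col18a1 kept their direction where called against wild type.

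**Figure D4:**
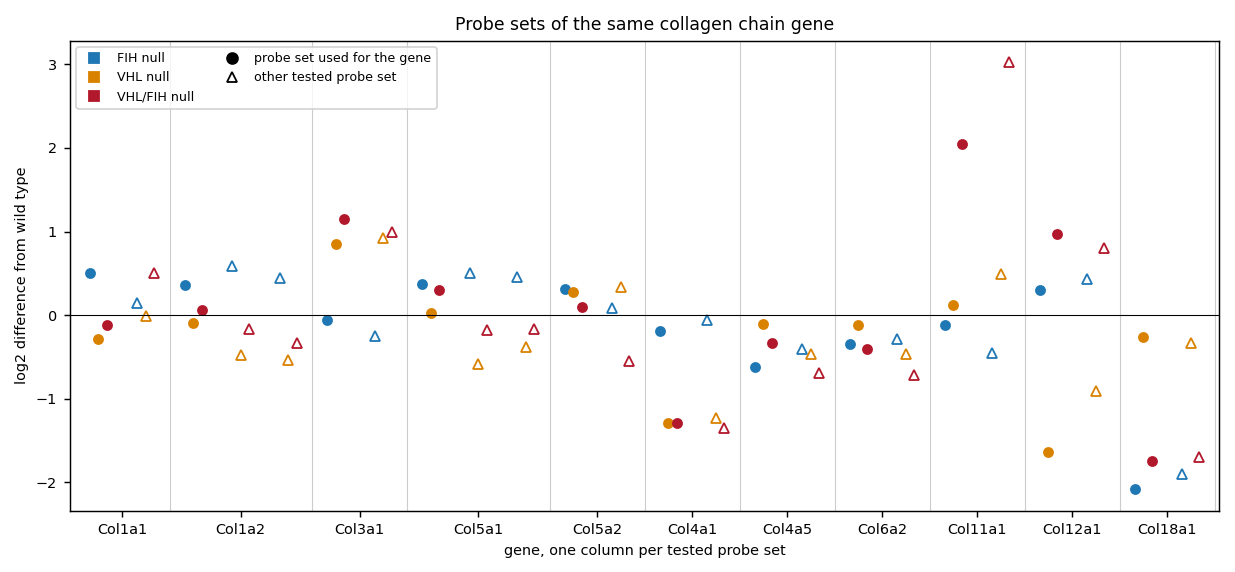
Log2 difference from wild type (vertical axis) by probe set for 11 collagen chain genes with more than 1 tested probe set; circles are the probe set used for the gene, triangles the others, colours the null groups. The probe sets of Col4a1, Col3a1 and Col18a1 lie close together, and in double null cells those of Col1a1, Col1a2, Col5a1 and Col5a2 lie on both sides of 0.

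Genes that modify and fold collagen chains rose more often than they fell in double null cells. Of 22 tested genes of 24 with a probe set, 2 rose and 0 fell in FIH null cells, 6 rose and 7 fell in VHL null cells, and 10 rose and 4 fell in double null cells, beside 1.96% higher and 4.59% lower, 15.5% and 28.4%, and 17.8% and 23.6% of all genes. The list had medians of 0.05, 0.02 and 0.26 beside -0.00, -0.10 and -0.05 over all genes. Scaling to the hybridization controls, which lowers every double null value by 0.52, would put the last median below 0. P4ha1 and P4ha2, which encode catalytic subunits of collagen prolyl hydroxylase, were the 2 that rose in FIH null cells (0.57 and 0.36). Against wild type they were also higher in VHL null and double null cells, P4ha1 by 0.84 and 1.41, and P4ha2 by 1.55 and 2.05. P4ha3, on the same list, averaged 245.7 on the wild type and 406.8 on the FIH null arrays and did not pass there. Plod2, a lysyl hydroxylase whose product sets the kind of crosslink, rose by 2.07 and 2.47 (larger adjusted p = 1.01e-07). P3h3, of the prolyl 3-hydroxylase family, rose by 1.35 in double null cells. Serpinh1, the collagen chaperone, was among those that fell in VHL null (-0.46, adjusted p = 0.000175) and in double null cells (-0.28, adjusted p = 0.00405).

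Of 15 tested genes of collagen processing and crosslinking, 2 rose and 2 fell in FIH null cells, 3 rose and 7 fell in VHL null cells, and 3 rose and 5 fell in double null cells, where 6.56%, 43.8% and 41.4% of all genes changed. Loxl3, a lysyl oxidase that starts crosslinks, fell in VHL null (-0.51) and rose in double null cells (1.97), with an interaction of 2.33 (adjusted p = 2.38e-07). Pcolce2, an enhancer of the protease that trims fibrillar procollagen, fell in VHL null cells (-1.76, adjusted p = 2.36e-07) and had an interaction of 1.60 (adjusted p = 1.82e-05). Tgm2, a transglutaminase that crosslinks matrix proteins, was lower in FIH null (-1.85), VHL null (-0.87) and double null cells (-2.26). Mmp2, a gelatinase, rose by 0.49 in FIH null cells and was lower in VHL null (-1.13) and double null cells (-0.51).

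Among 6 tested collagen receptors, 1 fell in FIH null cells, 3 rose and 2 fell in VHL null cells, and 1 rose and 3 fell in double null cells, beside the same shares of all genes. The receptor kinase gene Ddr1 rose by 0.41 after VHL loss and 0.59 after loss of both, while Mrc2, whose product takes collagen up for breakdown, was lower in both (-0.43 and -0.83). Of 24 tested regulators of collagen genes, 3 rose and 2 fell in FIH null, 7 rose and 6 fell in VHL null, and 7 rose and 10 fell in double null cells. These are 20.8%, 54.2% and 70.8% of the regulators, beside 6.56%, 43.8% and 41.4% of all genes. Ccn2, a matricellular growth factor, rose by 1.19 in VHL null and by 1.31 in double null cells (larger adjusted p = 5.43e-07). The growth factor gene Tgfb3 was lower in both (-1.11 and -1.05), as was Tgfb1 (-0.87 and -0.95). Creb3l1, which encodes an activator of type I collagen genes in bone, was lower too (-1.15 and -0.62).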

How the data were processed

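Large T-immortalized MEFs of 4 genotypes were measured on 8 arrays, 2 per group, grouped by the labels. The deposited table holds intensity values, MAS5 signals per probe set on a linear scale; per the submitters' processing notes MAS5 was used, with the version not given in the sources used here. Probe sets with 1 gene symbol in the platform annotation (34945) were kept and each gene was represented by its probe set of highest mean. Genes with a signal over 291.3, the median over the whole table, on 2 or more arrays were tested on log2(signal + 16) with limma 3.58.1 in R 4.3.3, 1 model over the 4 groups with a variance trend, and p-values were adjusted over 11561 genes for each of 6 comparisons. The number of arrays limits the precision. The code was tested on simulated data. Alternatives covered scaling, filters, pseudocounts, probe sets, the model and leaving out each array. Per-array values are given for tested genes with a called log2 difference of at least 1 and for the main chains of types I to VI, X and XVIII, and of the other lists up to 4 genes with the smallest p per comparison could be named. Gene lists, members and tests were chosen with earlier results of these data known. Promoters and coordinates are from RefSeq, build GRCm38.p6, with 33 of 42 genes matched to a promoter; motifs were sought in the 250 bases before each start.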

Additional observations from a re-analysis of the deposited data

Results flagged for a closer look

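For 11 collagen chain genes the effect of FIH loss differed between cells without and with VHL by the interaction test (limma, adjusted p under 0.05), given here as the log2 effect in VHL null minus that in wild type cells. It was 2.70 for Col6a3, 2.32 for Col12a1 and 2.04 for Col11a1. For Col10a1 the fitted 4.22 takes in wild type and VHL null groups below the signal cutoff, so its size has no scale. Lower but also positive differences were 1.53 for Col8a2, whose VHL null mean is below the signal cutoff, 0.59 for Col18a1 and 0.35 for Col3a1. It was negative for Col5a3 (-0.61), Col5a2 (-0.49) and Col1a1 (-0.33), whose type I and V chains rose after FIH loss with VHL present. For Col2a1 the 3.05 compares groups of which those without FIH are below the signal cutoff, and has no scale either. The Col1a1 difference had an adjusted p of 0.0471 and still passed without double null replicate 1, but not without any one of the other arrays (adjusted p between 0.0782 and 0.151).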

How the results depend on the processing

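Counts of changed collagen chain genes stayed within 1.5 times under every alternative in 5 of the 6 comparisons. The exception was FIH null against wild type, where the 9 calls became 4 without a variance trend, 3 of them among the 9. Leaving out 1 array at a time gave 5 to 9 calls there, with 5 without wild type replicate 1, wild type replicate 2, FIH null replicate 1 or FIH null replicate 2. Of the calls, 3 of 9 in FIH null, 8 of 12 in VHL null and 13 of 16 in double null cells, 9 of 13 and 9 of 15 in double null against VHL null and FIH null cells, and 5 of 11 interactions held under every alternative that tested the gene. Col2a1, Col7a1 and Col8a2 were not tested under the filter at the 75th percentile, so their calls were not tried there. With scaling to hybridization controls, Col5a2 (-0.10) and Col8a1 (-0.11) in VHL null and Col5a1 (-0.23) and Col8a1 (-0.22) in double null cells were reversed, and that scaling moves the median of all genes by -0.26, -0.38 and -0.52 in FIH null, VHL null and double null cells. When the probe sets of a gene were averaged, Col5a1 in double null cells (-0.018), Col4a5 in double null against FIH null cells (-0.0026) and the Col1a1 interaction (0.015) were reversed. Same-numbered replicates showed little shared deviation over all tested genes (correlations from 0.00423 to 0.0347 over 6 pairs of groups). The labels state no pairing, and such correlations cannot exclude a pairing that affects few genes. A replicate block gave 9, 12 and 17 calls in FIH null, VHL null and double null cells, 15 against VHL null, 16 against FIH null and 13 interactions. A fit of only the groups compared does not exist for the interaction. The 2 arrays per group limit the detection of small differences.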

Other observations

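Of the 17 collagen chain genes that were not tested, Col14a1, Col11a2 and Col20a1 were above the signal cutoff on 1 array each. Col14a1, a fibril-associated collagen of tendon and skin, read 303 and 269 in wild type, 84.8 and 72.4 in FIH null, 160.2 and 187 in VHL null, and 276 and 143 in double null cells. Col11a2, the partner of Col11a1 in cartilage fibrils, reached 338 on double null replicate 1 and read 227 on the other double null array. Among marker lists of cells not described above, 1 of 6 endothelial and 2 of 6 macrophage markers were tested, and none of either passed against wild type. Of 3 tested epithelial markers, Krt18 was lower in VHL null (-1.05) and double null cells (-1.97). Of 4 tested neural and Schwann cell markers, 1 rose and 1 fell in FIH null, 1 fell in VHL null, and 1 rose and 1 fell in double null cells. Beside these counts, 6.56%, 43.8% and 41.4% of all tested genes changed, in the same order.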
